A study of Mus musculus with 9 samples.

Results

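The genes described here are the amino acid transporter Slc genes of the mouse, taken as every protein-coding gene of the RefSeq annotation of mm10 whose symbol belongs to the Slc1, Slc3, Slc6, Slc7, Slc36, Slc38 or Slc43 family. This rule uses names and no measured value, although the families were picked with earlier results of these data known, and it gave 61 genes of 21900 protein-coding genes. The families hold 7 genes (Slc1), 2 genes (Slc3), 19 genes (Slc6), 15 genes (Slc7), 4 genes (Slc36), 11 genes (Slc38) and 3 genes (Slc43). The study profiled N6-methyladenosine (m6A), a methyl mark on adenosines of mRNA, in mouse embryonic stem cells (mESCs) by m6A-RIP-seq, in which an antibody enriches RNA fragments that carry the mark before sequencing. It comprised 9 libraries, with 2 immunoprecipitations and 1 input for each of 3 genotypes, namely wild type, Mettl3 knockout and Zc3h13 knockout. The peak lists of the 2 wild-type immunoprecipitations, replicates 1 and 2, were analysed here, and both came from wild-type mESCs, with no treatment named, whose background is labelled Rosa26:CRE, Bir ligase, like that of all 9 libraries. The remaining 7 libraries were not analysed here, so no value below compares genotypes.

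Amino acid transporters of the Slc (solute carrier) families move amino acids and related small molecules across the plasma membrane and the membranes of lysosomes. Some work as single proteins, whereas the light chains of the Slc7 family are held at the membrane by a heavy chain of the Slc3 family. Proliferating cells use them to supply protein synthesis and nucleotide synthesis, and the amino acid pool is read by the growth-controlling kinase complex mTORC1. m6A is placed on nuclear RNA by a methyltransferase complex built around Mettl3 and Mettl14, is often found near the stop codon and in the last exon of an mRNA, and is known for its part in mRNA turnover.

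A peak is a stretch in which the authors' caller found the immunoprecipitation enriched over input, and its summit is the base of highest signal. The fold enrichment is the ratio at the summit, and −log10 q measures how firmly the peak was called, with larger values for firmer calls. Replicate 1 had 22531 peaks and replicate 2 had 5040. Read counts do not come with the lists, so the depth of the libraries is unknown and values of the 2 lists are set side by side without adjustment. The labels call the samples replicates, but do not say that they came from separate cultures. Peak names inside the list of replicate 1 carry a sample name that does not read wild type, with no explanation in the labels or methods, so the replicates follow the sample labels. The lists hold no expression levels, so the cell type could not be checked against marker genes, and a gene with no peak may be unmethylated, not expressed or covered too thinly. These cannot be told apart.

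A peak was assigned to a gene when it lay within 500 bp of the gene body, and a gene with a peak in both replicates is called shared. Of the 61 transporter genes, 13 were shared (21.3%), against 16.1% of all protein-coding genes. A peak of replicate 1 was assigned to 29 of them (47.5%), against 41.3% of all protein-coding genes. For replicate 2 the number was 13 (21.3%), against 16.9% of all protein-coding genes. All 3 shares lay near those of the background. Every gene with a peak in replicate 2 also had a peak in replicate 1, so 16 genes had a peak in replicate 1 only, 0 in replicate 2 only, and 32 had no peak. Of the 29 genes in the list of replicate 1, 44.8% were also in that of replicate 2, against 39.1% of protein-coding genes. The other 292 Slc genes, which transport ions, sugars, nucleotides and many other substrates, had shares of 24.0% in both replicates, 48.3% in replicate 1 and 24.7% in replicate 2. The transporter genes are long, with a median gene body of 33747 bp against 17146 bp over all protein-coding genes. Within them the median gene body was 30534 bp for shared genes, 29577 bp for genes with a peak in replicate 1 only and 36664.5 bp for genes without a peak.

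The 3 stretches of sequence below were chosen because peaks of the transporter genes cover an annotated transcript start there. The first lies under the peak of Slc7a4 that had the highest fold enrichment of all transporter peaks in both replicates. The second lies under a peak at the start of Slc1a4. The third lies under a peak at starts inside the gene body of Slc7a7, with a summit 2331 bp from its 5′ end. A start window runs from 250 bp before a transcript start to 50 bp after it, so most printed bases lie upstream of the start concerned. All are RefSeq sequence of GRCm38.p6, printed 5′ to 3′ on the strand named. Capitals mark GGAC, the core of the motif in which m6A is most often found, and its reverse complement GTCC, so that both strands were searched, with no overlap between the motifs.

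Slc7a4 peak, chr16:17575629-17575928, plus strand, the start window of the long noncoding RNA LOC115488657:
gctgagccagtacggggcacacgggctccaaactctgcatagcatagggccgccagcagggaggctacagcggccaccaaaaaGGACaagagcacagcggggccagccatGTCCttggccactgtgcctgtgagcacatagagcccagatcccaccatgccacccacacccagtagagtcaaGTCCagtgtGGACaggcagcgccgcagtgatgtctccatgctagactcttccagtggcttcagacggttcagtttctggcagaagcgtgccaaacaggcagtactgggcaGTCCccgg

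Slc1a4 start, chr11:20332664-20332802, minus strand:
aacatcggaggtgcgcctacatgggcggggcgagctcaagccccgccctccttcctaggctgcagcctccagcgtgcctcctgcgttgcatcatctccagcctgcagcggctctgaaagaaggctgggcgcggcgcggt

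Slc7a7 start, chr14:54417653-54417952, minus strand:
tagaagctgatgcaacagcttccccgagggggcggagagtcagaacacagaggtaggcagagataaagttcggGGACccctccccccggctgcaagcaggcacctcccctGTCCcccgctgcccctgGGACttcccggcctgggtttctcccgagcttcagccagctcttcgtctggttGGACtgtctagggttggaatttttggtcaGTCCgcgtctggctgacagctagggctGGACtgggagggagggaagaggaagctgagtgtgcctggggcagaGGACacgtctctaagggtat

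The 300 bases under the Slc7a4 peak hold GGAC 2 times and GTCC 3 times, and the summits of replicates 1 and 2 fall on bases 258 and 261. The 300 bases of Slc7a7 hold GGAC 5 times and GTCC 2 times, and the summit of replicate 1 falls on base 216. The 139 bases of the Slc1a4 start window that its peak covers hold neither. The peak itself is 775 bp wide, its summit lies outside these bases, and the rest of it was not searched. Of all 32851 start windows in the table, 87.7% hold at least 1 of the 2 motifs in 300 bases, and 64.4% hold it in the same 139 bases. GGAC by itself, on the strand printed, is in 65.6% of the windows of 300 bases and in 40.8% of those of 139 bases. The presence of these letters is therefore common, and it is given as a description of the sequence and not as a methylated site.

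The families differed in how many of their genes were shared. Slc6 had 1 shared gene of 19 (5.26%) and Slc7 had 4 of 15 (26.7%), beside the 16.1% of all protein-coding genes. Slc1 had 3 of 7, Slc38 had 2 of 11, Slc43 had 2 of 3, Slc36 had 1 of 4 and Slc3 had 0 of 2. Leaving Slc6 aside, 12 of 42 transporter genes were shared (28.6%). Setting aside the large family with the lowest share raises this value by construction. In replicate 1 the counts were 3 genes for Slc1, 1 for Slc3, 6 for Slc6 (31.6%), 7 for Slc7 (46.7%), 2 for Slc36, 7 for Slc38 (63.6%) and 3 for Slc43, beside the 41.3% of all protein-coding genes. Slc43 was thus the family in which each gene had a peak in at least 1 replicate, and Slc6 the large family with the lowest share in both replicates. With 2 to 19 genes per family these are counts of a few genes, and no test was made between families.

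**Figure D1:**
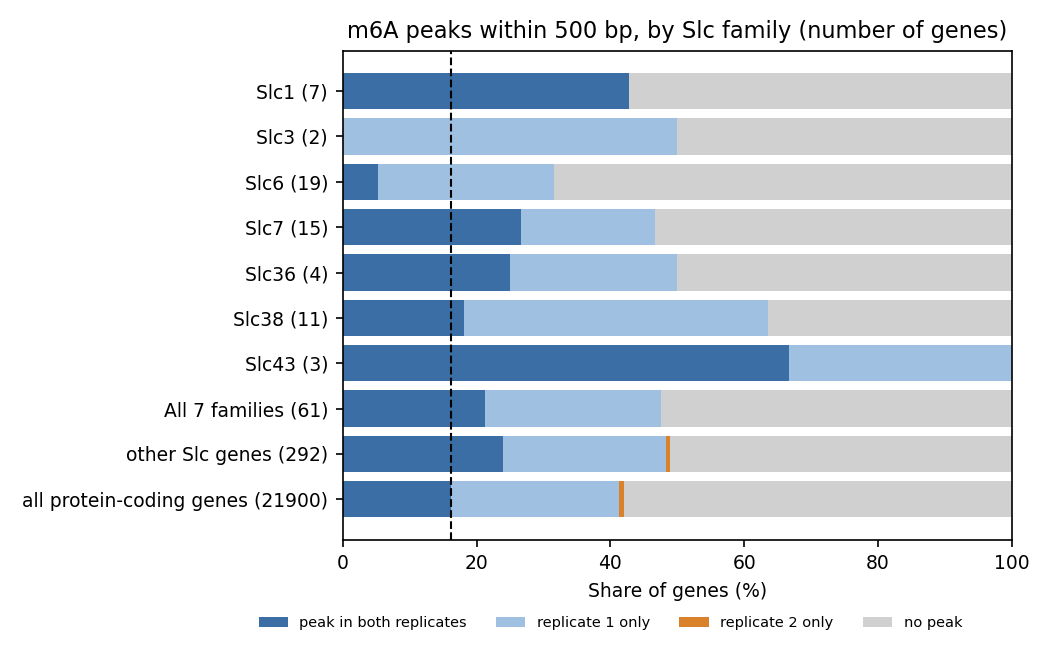
Share of genes (horizontal axis, %) in each of the 7 Slc families (vertical axis, number of genes in brackets). Further rows show all 7 families together, the other Slc genes and all protein-coding genes. Bars are divided into genes with a peak in both replicates, in replicate 1 only, in replicate 2 only and in neither list. The dashed line marks the 16.1% of all protein-coding genes with a peak in both replicates. Slc6 is the family with the most genes without a peak, 13 of 19, and Slc43 has 0 of 3.

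Gene positions below are those of the RefSeq gene bodies on mm10 (GRCm38). In the Slc1 family, which holds high-affinity glutamate transporters and exchangers of small neutral amino acids, the shared genes were Slc1a3, Slc1a4 and Slc1a5. Slc1a4 and Slc1a5 are the neutral amino acid exchangers, and Slc1a5 is a main route for glutamine into proliferating cells. Slc1a5 (chromosome 7, 16781334 to 16798274) had 2 peaks in replicate 1, with fold enrichments of 3.01 and 1.60 (−log10 q of 84.0 and 11.0), and their summits lay 516 and 16390 bp above the lower-coordinate end of its gene body of 16941 bp. Replicate 2 had 4 peaks, with fold enrichments of 3.63, 7.07, 5.17 and 3.94 (−log10 q of 7.91, 6.84, 5.07 and 6.09). The outer peaks, one at each end of the gene, overlapped between the replicates with summits 4 and 21 bp apart, whereas the 2 inner peaks were listed in replicate 2 alone, 7494 and 1532 bp from the nearest peak of replicate 1. The strand of Slc1a5 is not in the tables used here, so its ends are not called start and stop.

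Slc1a4 (chromosome 11, 20302180 to 20332713) had its firmest peak near the 3′ end. It was 2198 bp wide in replicate 1 (fold enrichment 3.76, −log10 q 74.9) and 987 bp wide in replicate 2 (fold enrichment 7.02, −log10 q 13.2). The summits lay 839 and 841 bp before the 3′ end of a gene body of 30534 bp. Replicate 1 had 2 further peaks in Slc1a4, both absent from replicate 2. The first lay in the middle of the gene (fold enrichment 8.42, −log10 q 15.2), and the second covered the transcript start printed above (fold enrichment 2.20, −log10 q 10.5), with a summit 400 bp downstream of the start. Slc1a3 (chromosome 15, 8634124 to 8710807) is a glutamate transporter of glial cells. It had 1 peak in replicate 1 (fold enrichment 3.56, −log10 q 19.9) with a summit 2127 bp before the 3′ end of its gene body of 76684 bp. A peak of replicate 2 had its summit 2 bp away (fold enrichment 7.70, −log10 q 7.95). The other 2 peaks of replicate 2 had no partner. They were a peak 646 bp away towards the 3′ end (fold enrichment 8.74, −log10 q 9.14) and a peak 2018 bp downstream of the start (fold enrichment 10.6, −log10 q 15.0), which was the firmest of this gene in replicate 2. The remaining glutamate transporters, Slc1a1, Slc1a2, Slc1a6 and Slc1a7, had no peak.

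The Slc3 family consists of the heavy chains Slc3a1 and Slc3a2. Slc3a2, the partner of most Slc7 light chains and known as CD98, had 1 peak in replicate 1 (fold enrichment 3.51, −log10 q 27.7) and none in replicate 2. Its summit lay 408 bp upstream of the single transcript start listed for the gene, but inside the gene body, 9064 bp from its 5′ end. Slc3a1, the heavy chain of kidney and intestine, had no peak. Neither heavy chain was therefore shared.

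In the Slc6 family, the sodium- and chloride-coupled transporters of neurotransmitters and amino acids, the shared gene was Slc6a9 (chromosome 4, 117835258 to 117869305), a glycine transporter. Both of its peaks were found in both replicates at nearly the same base. The first had fold enrichments of 9.60 and 6.95 and −log10 q of 85.4 and 9.39 in replicates 1 and 2, with summits 1126 and 1123 bp before the 3′ end of its gene body of 34048 bp. The second had fold enrichments of 4.28 and 5.43 and −log10 q of 29.0 and 3.78, with summits 120 and 124 bp past the 3′ end. The summits of the second pair lie within Ccdc24, a protein-coding gene on the opposite strand, and since peaks carry no strand the 2 genes cannot be told apart there. The first pair does not overlap Ccdc24, although the peak of replicate 2 lies within 500 bp of it.

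Of the 5 Slc6 genes with a peak in replicate 1 only, Slc6a8, the creatine transporter, had the firmest. Its 3 peaks had fold enrichments of 4.45, 5.27 and 3.09 and −log10 q of 49.7, 73.3 and 45.5, with summits 147, 631 and 3559 bp above the lower-coordinate end of the gene body. The first 2 also lie within Gm32261, a long noncoding RNA gene. The betaine transporter Slc6a12, the brain proline transporter Slc6a7, Slc6a15 and Slc6a16 had 1 peak each, with fold enrichments between 5.39 and 20.9 and −log10 q between 6.97 and 64.5. The peak of Slc6a15, a carrier of branched-chain amino acids, was chosen for mention after its values were seen. It had the highest of these values, 20.9 and 64.5, but lay 395 bp outside the gene body and overlapped 6430590A10Rik, a long noncoding RNA gene. No peak was listed for the monoamine transporters Slc6a2, Slc6a3 and Slc6a4, for Slc6a11 and Slc6a13, which carry GABA, for the taurine transporter Slc6a6, for the glycine transporter Slc6a5, or for Slc6a14, Slc6a17, Slc6a18, Slc6a19 and Slc6a21.

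The Slc7 family holds cationic amino acid carriers and the light chains of the heteromeric transporters. Among the 5 carriers of the first kind, Slc7a1 and Slc7a4 were shared, and Slc7a2, Slc7a3 and Slc7a14 had no peak. Slc7a4 (chromosome 16, 17572018 to 17576890), a relative of the cationic carriers without an established substrate, is a short gene of 4873 bp with 3 peaks in each replicate, all of which overlapped. In genomic order their fold enrichments were 8.39, 13.0 and 21.7 in replicate 1 and 7.75, 3.66 and 14.7 in replicate 2. Their −log10 q were 42.0, 114 and 128 in replicate 1 and 8.03, 3.46 and 22.5 in replicate 2. The third peak, whose sequence is shown above, was the highest of the gene in both lists by both measures, with summits 3 bp apart, and it ranked 378 by fold enrichment among all peaks of replicate 1 and 149 among those of replicate 2. It overlaps LOC115488657, a long noncoding RNA gene that starts within it. The signal of the 2 genes cannot be told apart there. The middle peak stood differently in the lists, at rank 1824 of 22531 by fold enrichment in replicate 1 and at rank 4502 of 5040 in replicate 2.

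Slc7a1 (chromosome 5, 148327410 to 148399904), the main arginine and lysine carrier of most cells, had 1 peak in each replicate, with fold enrichments of 4.03 and 3.78 and −log10 q of 102 and 7.54. The summits were 6 bp apart, 4302 and 4296 bp before the 3′ end of a gene body of 72495 bp. Its peak of replicate 1 was thus firmly called at a moderate enrichment, and was 1439 bp wide.

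Among the 10 light chains, Slc7a6 and Slc7a10 were shared. Slc7a10 (chromosome 7, 35186095 to 35201116), a carrier of small neutral amino acids that also takes D-serine, had 1 peak in each replicate, with fold enrichments of 7.49 and 6.95 and −log10 q of 112 and 9.19. Both summits lay past its 3′ end, by 111 and 115 bp, and inside Lrp3, a gene of the opposite strand. These are its only peaks, and the signal of Slc7a10 and Lrp3 cannot be told apart there. Slc7a6 (chromosome 8, 106168219 to 106198714), which exchanges cationic for neutral amino acids, was shared by the gene rule but not by its peaks. The peaks of replicate 1 had fold enrichments of 1.63 and 2.53 (−log10 q of 12.6 and 26.3), the second of them 48 bp outside the gene body, whereas the peak of replicate 2 had 4.69 (−log10 q of 4.08) and lay between them, 628 bp from the nearer. All 3 summits fell in a stretch between 1719 bp before and 226 bp past the 3′ end. Of the light chains with a peak in replicate 1 only, Slc7a7, the related exchanger of gut and kidney epithelium, had the firmest, the peak over the sequence shown above (fold enrichment 4.69, −log10 q 36.01). It covered 3 of the 5 transcript starts listed for the gene, and its summit lay 35 bp upstream of the nearest. A second peak of Slc7a7 had a fold enrichment of 1.93 (−log10 q of 31.4). Slc7a5 and Slc7a8, which carry large neutral amino acids, had 1 peak each, with fold enrichments of 1.45 and 6.04 and −log10 q of 11.7 and 13.0. The light chains Slc7a9, Slc7a11, Slc7a12, Slc7a13 and Slc7a15 had no peak.

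In the Slc36 family of proton-coupled carriers, Slc36a1 (chromosome 11, 55204322 to 55236330), which works at the plasma membrane and on lysosomes, was shared. Its peak in replicate 1 was 1723 bp wide (fold enrichment 5.74), and its −log10 q of 128 was the highest of all transporter peaks. Replicate 2 had 2 narrower peaks inside the same stretch, with fold enrichments of 8.73 and 10.4 and −log10 q of 10.2 and 15.4. The summit of replicate 1 was 10 bp from that of the second and 1214 bp from that of the first, and lay 2577 bp before the 3′ end of a gene body of 32009 bp. Slc36a4, its relative, had 3 peaks in replicate 1 only, with fold enrichments of 8.13, 3.89 and 7.99 and −log10 q of 31.0, 9.83 and 30.1, all with summits between 2408 and 4146 bp before the 3′ end. Slc36a2 and Slc36a3 had no peak.

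In the Slc38 family of sodium-coupled neutral amino acid transporters, 7 of 11 genes had a peak in replicate 1, and Slc38a1 and Slc38a7 were shared. Slc38a1 (chromosome 15, 96571418 to 96643438), a glutamine carrier of the plasma membrane, had 2 peaks in each replicate, all close to the higher-coordinate end of the gene body. Their fold enrichments were 5.67 and 6.37 in replicate 1 and 6.68 and 9.56 in replicate 2, with −log10 q of 23.7 and 58.6 and of 6.21 and 11.6. The peak nearer to that end was the higher of the pair in both replicates, with summits 645 and 649 bp from the end. Slc38a7 (chromosome 8, 95835920 to 95853577), which exports glutamine from lysosomes, had 5 peaks in replicate 1, the most of any transporter gene, and 2 in replicate 2. The peaks next to the 3′ end had summits 299 and 300 bp before it and fold enrichments of 2.53 and 7.56 (−log10 q of 43.6 and 12.6). The neighbouring peaks had summits 1584 and 1587 bp before it and fold enrichments of 3.73 and 2.92 (−log10 q of 127 and 4.93). The order of the pair therefore differed between the replicates, with the outer peak the higher in replicate 2 by both measures and the inner peak the higher in replicate 1. The other 3 peaks of replicate 1 had fold enrichments between 2.69 and 4.74 and −log10 q between 22.2 and 30.5.

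The firmest peak among Slc38 genes of replicate 1 only belonged to Slc38a10, a broadly expressed member of the family. It was 1552 bp wide (fold enrichment 2.42, −log10 q 66.4) and had its summit 1875 bp before the 3′ end. The remaining 4 genes, Slc38a2, Slc38a3, Slc38a6 and Slc38a9, had peaks with fold enrichments between 1.42 and 11.9 and −log10 q between 9.73 and 44.1. Slc38a9 and Slc38a2 were chosen for mention after their values were seen. Slc38a9, the lysosomal arginine sensor that signals to mTORC1, held the highest of these values, with fold enrichments of 11.9 and 9.89, and the second of its peaks lay 368 bp before the 3′ end. Slc38a2, a glutamine and alanine carrier induced by amino acid shortage, had 2 peaks with low fold enrichments of 1.42 and 1.65. The peak of Slc38a6 lay 201 bp outside the gene body, within Trmt5. Slc38a4, Slc38a5, Slc38a8 and Slc38a11 had no peak.

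In the Slc43 family, Slc43a1 and Slc43a2, which carry large neutral amino acids, were shared. Slc43a1 (chromosome 2, 84838855 to 84863586) had peaks at both ends of its gene body of 24732 bp. At the 5′ end, replicate 1 had a single peak (fold enrichment 14.9, −log10 q 117), and replicate 2 had 2 peaks in the same stretch with 11.7 and 6.16 (−log10 q of 16.8 and 4.88). These lie within D930003E18Rik, a long noncoding RNA gene of the opposite strand, and the summit of replicate 1 lay 1121 bp upstream of the single transcript start listed for Slc43a1. At the 3′ end, the peaks had fold enrichments of 4.62 and 6.03 in replicates 1 and 2, with −log10 q of 59.3 and 6.47 and summits 630 and 402 bp before the end. Slc43a2 (chromosome 11, 75529915 to 75577575) had 3 peaks in replicate 1, and 2 of them were found in replicate 2. The peak 14762 bp before the 3′ end had fold enrichments of 9.60 and 7.88 (−log10 q of 47.0 and 8.03), and the peak 4982 bp before it had 4.77 and 4.61 (−log10 q of 48.99 and 3.52). Their summits in replicate 2 were 7 and 1 bp away. The peak of replicate 1 alone lay near the start, 398 bp downstream of a listed transcript start (fold enrichment 5.77, −log10 q 10.3). Slc43a3, a nucleobase carrier despite its family, had 3 peaks in replicate 1 only, with fold enrichments of 5.52, 4.75 and 8.73 and −log10 q of 46.9, 9.58 and 25.9.

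**Figure D2:**
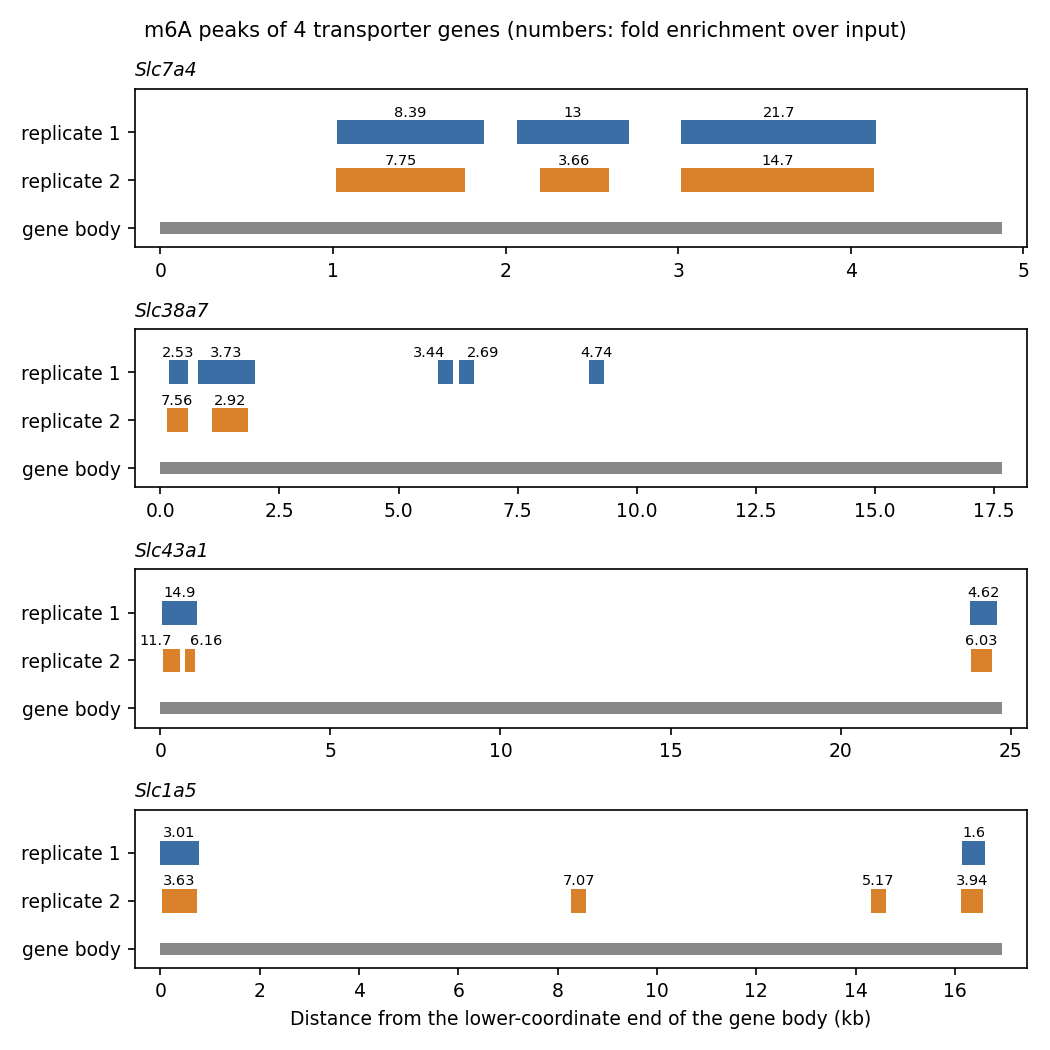
Peaks of Slc7a4, Slc38a7, Slc43a1 and Slc1a5 in replicates 1 and 2 along the gene body (horizontal axis, distance from its lower-coordinate end in kb), with the fold enrichment of each peak printed above it. Slc7a4 has 3 overlapping pairs, Slc38a7 has 3 peaks in replicate 1 alone, Slc43a1 has peaks at both ends, and Slc1a5 has 2 inner peaks in replicate 2 alone.

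Over all transporter genes, replicate 1 had 53 peaks and replicate 2 had 27. Their median fold enrichment was 4.74 in replicate 1, against 5.39 over all peaks of that list, and 6.95 in replicate 2, against 6.35 over all peaks. The median −log10 q was 30.5 against 28.9 in replicate 1 and 7.95 against 7.54 in replicate 2, and the median width was 492 against 445 bp and 441 against 446 bp. Transporter peaks were thus of about the same height, firmness and width as the lists as a whole. Genes carried from 1 to 5 peaks. In replicate 1, 14 genes had 1 peak, 8 had 2 and 7 had 3 or more, with a mean of 1.83 against 2.42 for protein-coding genes with a peak. In replicate 2 the numbers were 4, 5 and 4, with a mean of 2.08 against 1.44. A single peak was therefore the case for 48.3% of the transporter genes in replicate 1, against 42.6% of protein-coding genes with a peak, and for 30.8% in replicate 2, against 70.9%. The second of these shares rests on 13 genes.

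For shared transporter genes, the highest peak of a gene by fold enrichment ranged from 2.53 to 21.7 in replicate 1 with a median of 6.37, against a median of 7.62 for all shared protein-coding genes. In replicate 2 it ranged from 3.78 to 14.7 with a median of 7.56, against 6.73. Transporter genes with a peak in replicate 1 only ranged from 1.45 to 20.9 with a median of 5.33, against 5.84 for protein-coding genes of that kind, so that the 2 sets of transporter genes overlapped widely. By −log10 q in replicate 1, the median was 85.4 for shared transporter genes and 24.6 for those of replicate 1 only, with ranges from 19.9 to 128 and from 6.97 to 73.3. Over protein-coding genes the same medians were 87.4 and 36.03. Shared genes had the higher median of −log10 q among transporter genes and among all protein-coding genes. The value is the highest of a gene's peaks, and in replicate 1 the 13 shared transporter genes held 28 peaks, against 25 in the other 16. A shared gene also needs a call in the shorter list, so a firmer peak is partly built into the comparison. The difference was not tested.

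**Figure D3:**
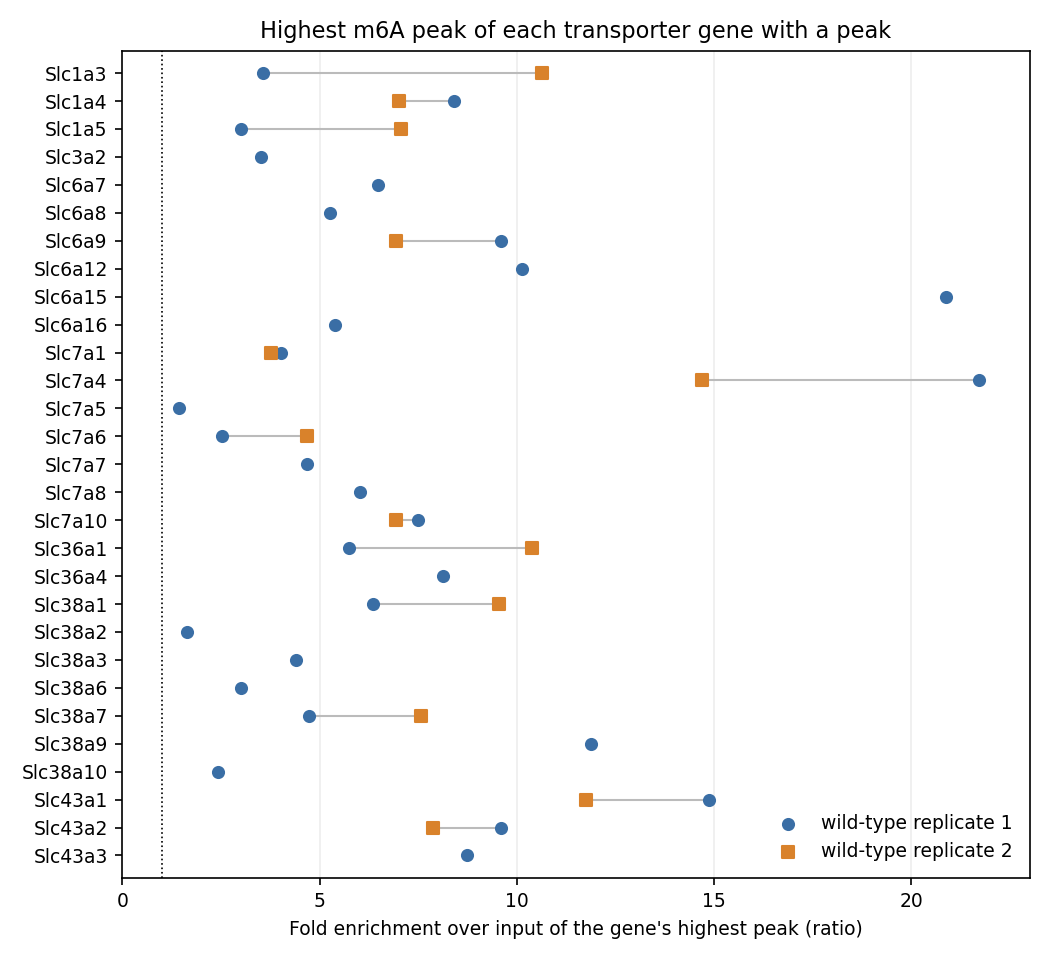
Highest fold enrichment over input (horizontal axis, ratio) among the peaks of each of the 29 transporter genes with a peak (vertical axis), in replicate 1 (circles) and replicate 2 (squares), joined by a line where both are present, with a dotted line at a ratio of 1. Slc7a4 is the highest in both replicates, at 21.7 and 14.7, and the genes with a circle only run from 1.45 to 20.9.

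Overlap between the lists was also counted by peak. Of the 27 transporter peaks of replicate 2, 22 shared at least 1 bp with a peak of replicate 1 (81.5%, exact binomial 95% interval 61.9% to 93.7%), against 92.1% of all peaks of replicate 2. With replicate 1 cut to the length of the other list by −log10 q, this share was 44.4%, against 55.6% of all peaks. Of the 53 peaks of replicate 1, 20 overlapped a peak of replicate 2 (37.7%, interval 24.8% to 52.1%), against 19.1% of all peaks of replicate 1. The labels list 1 wild-type input, so both lists may have been called against the same input, and the overlap between them is then not that of fully separate data. The intervals cover counting error only, and peaks of a gene are not independent. The 5 peaks of replicate 2 without a partner belonged to Slc1a3, Slc1a5 and Slc7a6. The overlapping peaks formed 22 pairs in 12 genes. Their summits were a median of 5 bp apart, against 10 bp over all 4684 pairs of the lists, with 15 pairs within 10 bp, 19 within 100 bp and the largest distance 1214 bp, in Slc36a1. The fold enrichment was the higher in replicate 1 in 11 pairs and in replicate 2 in the other 11, and over all pairs it was the higher in replicate 2 in 51.1%.

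The strand is given for 43 of the 61 transporter genes, 20 of which had a peak and 10 of which were shared, so position along the gene was counted in these. In replicate 1, 24 of 36 summits lay in the last 20% of the gene body or past its 3′ end (66.7%). Counted alike, the share was 45.5% of 16737 summits over protein-coding genes with a strand. In replicate 2 the number was 14 of 18 (77.8%), against 59.1% of 4057. Summits of Slc6a9 and Slc7a10 past the 3′ end, in both replicates, lie inside genes of the opposite strand. A summit of Slc7a6 in replicate 1 also lay past the 3′ end. Within 1000 bp of the 3′ end or past it lay 8 summits in replicate 1 (22.2% against 14.7%) and 6 in replicate 2 (33.3% against 24.5%). The first 20%, counted with any summit before the 5′ end, held 5 summits in replicate 1 (13.9% against 18.1%) and 3 in replicate 2 (16.7% against 12.3%). Between these zones lay 7 summits in replicate 1 (19.4% against 36.4%) and 1 in replicate 2 (5.56% against 28.5%). Of the 3 zones so counted, the one at the 3′ end held the most transporter summits in both replicates. A gene body includes introns, and in a long gene the last 20% spans many kilobases, so these shares do not place a summit in an exon.

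**Figure D4:**
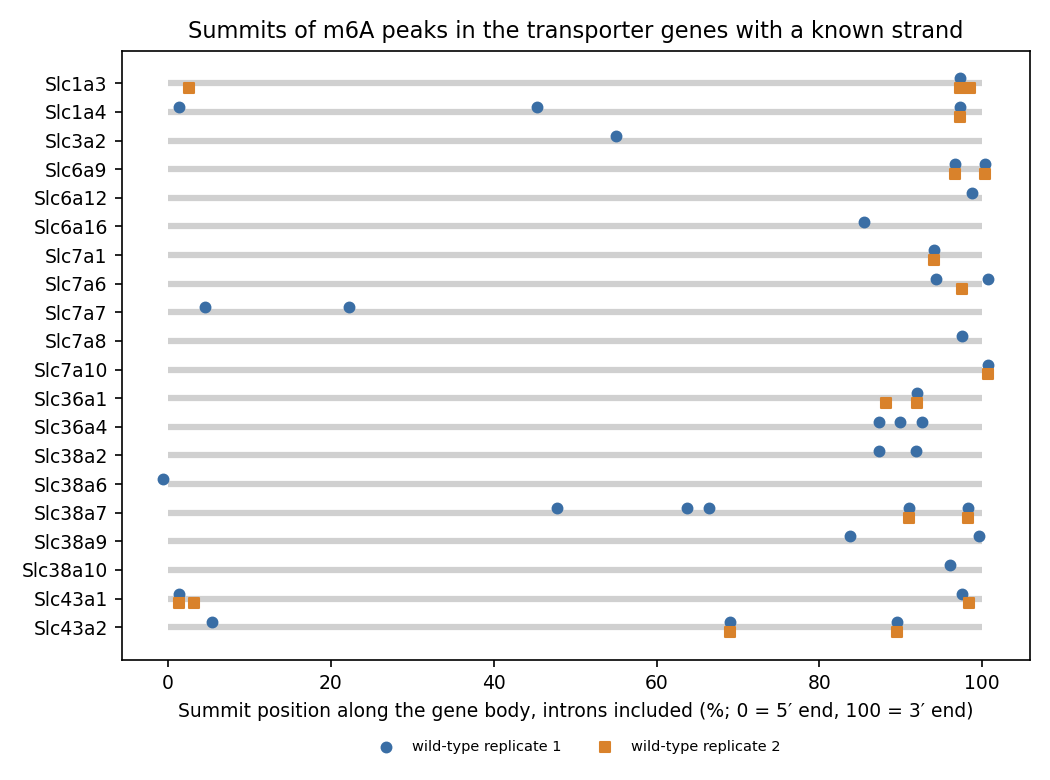
Position of the peak summits of transporter genes with a known strand along the gene body, from the 5′ end (0%) to the 3′ end (100%), in replicates 1 and 2. Most points lie in the last 20% or past the 3′ end, 24 of 36 in replicate 1 and 14 of 18 in replicate 2.

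Several transporter genes lie beside a relative on the chromosome. Within 1 Mb of each other, 21 of the 61 genes form 9 clusters, of which 4 hold a shared gene and 0 hold more than 1. For comparison, 21.3% of all 61 transporter genes and 16.1% of all protein-coding genes were shared. On chromosome 11, Slc36a1 was shared whereas Slc36a2, 19222 bp away, and Slc36a3 had no peak. On chromosome 15, Slc38a1 was shared, Slc38a2 had peaks in replicate 1 only and Slc38a4 had none. Slc43a1 was shared and Slc43a3, 72958 bp away on chromosome 2, had peaks in replicate 1 only. Slc7a10 was shared and Slc7a9 on chromosome 7 had no peak. Neighbouring genes of a family thus differed in these 4 clusters, which follows from there being 1 shared gene in each. No gene was shared in the other clusters.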

How the data were processed

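Peak lists of the 2 wild-type m6A immunoprecipitations were analysed, and 7 libraries were not analysed here. Per the study's methods the authors called peaks with MACS2 at default parameters against input, for each immunoprecipitation by itself. The submitters' processing notes also list Bowtie and SAMtools, and the build mm10, without versions. The labels list 1 wild-type input library, and whether both replicates were called against it is not stated. The authors' MACS2 output, as deposited, gives for every peak a score, the fold enrichment over input, −log10 p-value and −log10 q-value. The deposited score was left out.

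Coordinates of mm10, printed from 1, were joined to 49997 genes of RefSeq GRCm38.p6. Genes were assigned peaks within 500 bp and shared genes taken as the intersection of both lists, as in the study's methods. Strand and start windows came from a RefSeq promoter table, which gave a strand for 43 of 61 genes. The join was tested on simulated data. No hypothesis test was made: counts of transporter genes are described beside those of all protein-coding genes. The members and lists were chosen with earlier results of these data known. Shared genes are described with all their peaks. Of genes with a peak in 1 replicate only, the one with the highest −log10 q in each family is described, and the others are given by range. Genes without a peak are only named, and 1 gene is not reported here by name. Of each list of other genes, the first 3 shared and the first 2 not shared are named. Alternatives were thresholds on −log10 q (5) and fold enrichment (4), replicate 1 cut to its firmest peaks, other distances and overlaps, and each replicate alone. Tools were Python 3.11.15, pandas 2.3.3, numpy 2.4.6, matplotlib 3.10.9 and scipy 1.17.1.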

Additional observations from a re-analysis of the deposited data

How the results depend on the processing

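The number of shared transporter genes, 13, was 12 (19.7%, against 12.8% of protein-coding genes) with a −log10 q of at least 5 and 12 (19.7%, against 15.6%) with overlapping peaks required, where Slc7a6 was lost. It was 11 (18.0%, against 12.8%) when peaks near more than 1 gene were left out, where Slc6a9 and Slc7a10 were lost. It was 9 (14.8%, against 11.6% of protein-coding genes) with a fold enrichment of at least 4, where Slc1a3, Slc1a5, Slc7a1 and Slc7a6 were lost. It was also 9 (14.8%, against 10.7%) with replicate 1 cut to the length of the other list by −log10 q, where Slc1a3, Slc7a6, Slc38a1 and Slc43a2 were lost. Assignment within 0 or 2000 bp left it at 13, and a distance of 2000 bp gave no further transporter gene a peak. The genes with a peak in replicate 1, 29 in the main setting, were 27 at 0 bp. They were 26 when peaks near more than 1 gene were left out. Without either replicate, the number of genes with a peak ranged from 13 to 29, since replicate 1 lists more peaks. The share of transporter peaks of replicate 2 that overlap replicate 1, 81.5%, was 44.4% with replicate 1 reduced (55.6% of all peaks), 59.3% when the overlap had to reach 50% of each peak (57.9% of all peaks) and 63.6% with a fold enrichment of at least 4 (68.8% of all peaks). Of 67 further values, 11 moved, among them the shared genes of Slc1 (1) and Slc7 (2) at a fold enrichment of at least 4, of Slc6 (0) with peaks near 1 gene only, and of Slc38 (1) and Slc43 (1) with replicate 1 reduced. No paired analysis was possible because a single genotype was analysed and no test was made. Depth is unknown.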

Other observations

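Genes that read or use the amino acids carried by these transporters were counted in the same way, beside the 16.1% of protein-coding genes with a peak in both replicates. Of 36 genes of amino acid sensing by mTORC1, 10 were shared (27.8%), among them Mlst8, a subunit of the kinase complex, Rragc, a Rag GTPase, and Wdr24, a subunit of the GATOR2 complex. Mtor and Rptor, the kinase and its scaffold, were not shared. Of 15 genes of the amino acid response, 7 were shared (46.7%), among them Atf5, Ppp1r15a and Trib3, which are induced in that response. Atf4, its main transcription factor, and Eif2ak4, the kinase that senses uncharged tRNA, were not shared. Of 20 cytosolic aminoacyl-tRNA synthetases, 2 were shared, namely Kars and Wars, while Aars and Cars were not. Of 17 amino acid transporters of other families, 7 were shared (41.2%), among them Slc15a4, Slc16a10 and Slc25a15. Slc17a6 and Slc17a7, which are among the vesicular glutamate transporters, were not shared. These lists are small and were chosen by hand with earlier results of these data known, so their shares are no independent evidence, and no test was made on them.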
